A study of Saccharomyces cerevisiae with 18 samples.

Results

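The 10 genes described here are *THI2*, *THI3*, *THI4*, *THI5*, *THI6*, *THI7*, *THI20*, *THI21*, *THI22* and *THI80*. *THI2* and *THI3* encode regulators, and *THI22* has no established part in thiamine synthesis. The 10 are grouped under the synthesis, uptake and activation of thiamine (vitamin B1) in *S. cerevisiae*. They were chosen by name, through the gene symbols of the deposited annotation, and all 10 were found among the 5698 *S. cerevisiae* genes tested, each on a probe set of its own or a shared one. The probe set of *THI5* is annotated to 4 genes, *THI5*, *THI11*, *THI12* and *THI13*, which are near-identical copies, so their signals cannot be separated and are reported as those of the *THI5* family. On every array each of the 10 probe sets was above background, taken as the level that 95% of the probe sets for *S. pombe* genes on the same array stayed below.

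Yeast builds thiamine from a pyrimidine ring and a thiazole ring that are made by separate branches and then joined, and the product, or thiamine taken up from the medium, is converted to thiamin diphosphate. This cofactor is used by pyruvate decarboxylase, pyruvate dehydrogenase, transketolase and related enzymes. The *THI* genes are known to be repressed when thiamine is plentiful and induced when it is scarce, through the regulators Thi2, Thi3 and Pdc2.

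RNA was hybridized to 12 Affymetrix GeneChip yeast arrays in 4 groups of 3 biological replicates. These were the *SKY1* deletion strain W303-Δ*sky1* and its parent W303, each treated with 600 µM cisplatin for 4 h or left without the drug, with DMSO alone. Sky1 is a serine-arginine (SR) protein kinase, and cisplatin is a platinum drug that binds DNA. Both strains share the W303 background (*MATa*, with mutant alleles of *ura3*, *trp1*, *leu2*, *his3*, *can1* and *ade2*) and were grown in complete synthetic medium. Values are log2 signals from RMA, a procedure that sets the arrays of a run to a common distribution and gives each probe set 1 value. The authors ran it separately for each of 3 comparisons of 6 arrays, so every W303 array was normalized in each of the tables it enters, and tests were made only within a table. The comparisons of untreated W303-Δ*sky1* with untreated W303 and of treated W303-Δ*sky1* with treated W303 have no array in common, and the comparison of treated with untreated W303 shares 3 arrays with each of them.

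*SKY1* was between 0.54 and 1.43 in W303-Δ*sky1* and between 7.98 and 8.18 in W303, and background was between 1.24 and 1.35. The correlation between replicates lay between 0.992 and 0.998 (Pearson's r across genes). The a-specific genes were present (4.38 to 9.98), and 5 of 6 were lower in untreated W303-Δ*sky1* and 6 of 6 in treated W303-Δ*sky1* than in W303 at an adjusted p under 0.05. By the same criterion 27.4% and 37.8% of all genes were lower. Of the α-specific genes, *MF(ALPHA)1*, *MF(ALPHA)2* and *STE3* were between 1.07 and 2.65, but *SAG1* was between 6.70 and 7.27. The strain differences of the thiamine genes stand beside this lower level of a-specific genes, and its part in them was not tested. A gene was called a differentially expressed gene (DEG) where it differed by 1.6-fold or more (a log2 difference of 0.68), with p under 0.01 and an adjusted p under 0.05 (limma, two-sided, with Benjamini-Hochberg adjustment over all 5698 genes).

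Without cisplatin, the *THI5* family and *THI20*, which belong to the pyrimidine branch, were DEGs with higher signals in W303-Δ*sky1*, by 3.06-fold and 2.32-fold. They were 2 of the 10 probe sets, with 0 lower, beside 4.93% of all genes called higher and 5.28% called lower. With the adjusted p as the one criterion, and neither the fold nor the unadjusted p, 5 of the 10 were higher (*THI2*, *THI4*, the *THI5* family, *THI20* and *THI21*) and 1 was lower (*THI80*) at an adjusted p under 0.05, beside 24.9% and 27.4% of all genes. *THI80* did not meet the unadjusted p under 0.01, so that with the fold threshold alone removed 5 were higher and 0 lower. The strains did not overlap in 6 higher and 1 lower of the 10 probe sets, beside 29.5% and 32.5% of all genes. *THI7* was among the 6 higher by a gap lost in rounding (8.26 on the nearest array of each strain). Its difference did not pass the test (adjusted p = 0.184 from limma). The median difference of the 10 was 0.17 on the log2 scale, and that of all genes was -0.02. The RNA came from whole cultures, in which fewer expressing cells and less RNA per cell cannot be told apart. The plot of signals by array shows the 3 replicates of each group for every probe set.

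**Figure D1:**
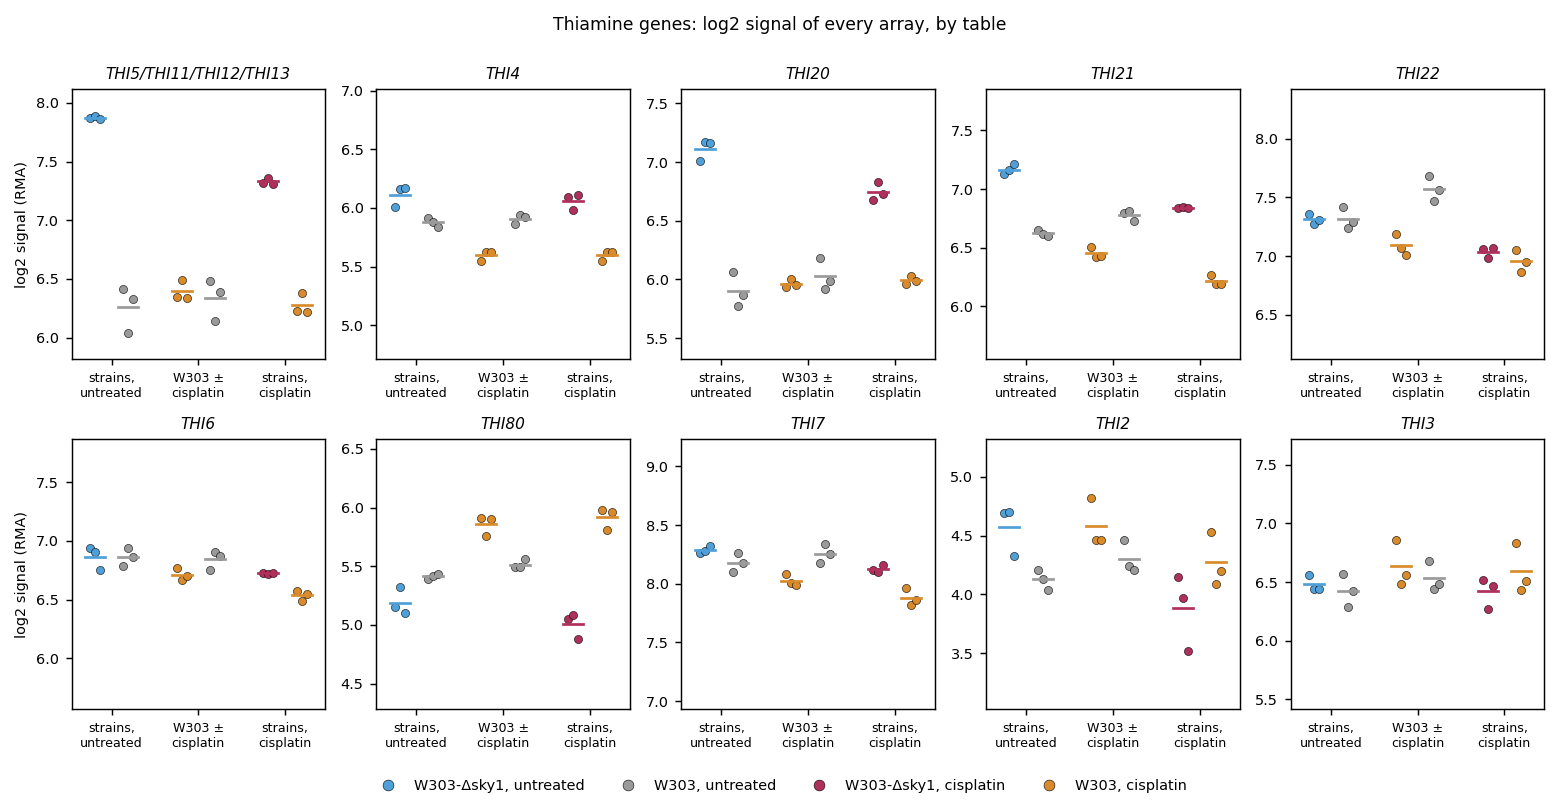
Log2 RMA signal (vertical axis, a window of the same height in every panel) of the 10 thiamine probe sets on each array, with W303-Δsky1 left of W303 and cisplatin left of untreated in each table. Points are the 3 arrays of a group and lines their mean; the THI5 family and THI20 lie well above W303 in W303-Δsky1, and THI80 lies below W303 in treated W303-Δsky1.

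The *THI5* family encodes hydroxymethylpyrimidine phosphate synthase, the enzyme that makes the pyrimidine precursor. On the 3 arrays of untreated W303-Δ*sky1* its log2 signal was 7.87, 7.89 and 7.86, against 6.41, 6.04 and 6.33 in untreated W303. All arrays of the mutant were above all arrays of the parent. The difference was 1.62 (SE 0.0965, 95% confidence interval 1.39 to 1.84, adjusted p = 2.69e-05 from limma), and it ranked 13 among the increases of all 5698 genes. The replicates of W303 were more spread (6.26 ± 0.19, SD, n = 3) than those of W303-Δ*sky1* (7.88 ± 0.02), and leaving out single arrays kept the difference between 1.51 and 1.69.

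The strain difference of this probe set was also present in the cells given cisplatin. Its signal was 7.32, 7.36 and 7.31 in treated W303-Δ*sky1*, against 6.23, 6.38 and 6.22 in treated W303, with no overlap. The difference was 1.05 (SE 0.0601, interval 0.92 to 1.19, a 2.08-fold higher signal, adjusted p = 1.36e-06). In this comparison it ranked 165 among the increases. Within W303 the signal was 6.35, 6.49 and 6.34 with cisplatin, against 6.48, 6.14 and 6.39 without, and the groups overlapped (0.06, interval -0.16 to 0.28, adjusted p = 0.682).

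*THI20* encodes a kinase of hydroxymethylpyrimidine and its phosphate, which carries the pyrimidine to the form used in the coupling step and also has a thiaminase domain. Its signal was 7.01, 7.17 and 7.16 in untreated W303-Δ*sky1*, against 6.06, 5.77 and 5.87 in untreated W303. The groups were far apart, with a difference of 1.21 (SE 0.0886, interval 1.01 to 1.42, adjusted p = 6.35e-05) that ranked 44 among the increases. With cisplatin in both strains the signal was 6.68, 6.83 and 6.73 in W303-Δ*sky1*, against 5.96, 6.03 and 5.99 in W303 (0.76, SE 0.0591, interval 0.62 to 0.89, 1.69-fold, adjusted p = 7.57e-06). That difference ranked 387 among the increases and did not reach a 2-fold threshold. Within W303, *THI20* was 5.94, 6.00 and 5.95 with cisplatin and 6.18, 5.92 and 5.99 without, and these overlapped (-0.07, interval -0.24 to 0.11, adjusted p = 0.521).

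*THI21* encodes a second kinase of the same family, and *THI22* a related protein that has no established part in thiamine synthesis. Because the 3 genes resemble each other, cross-hybridization between their probe sets is possible and was not tested. *THI21* was 7.13, 7.16 and 7.21 in untreated W303-Δ*sky1*, against 6.65, 6.62 and 6.60 in untreated W303, with a difference of 0.55 (SE 0.0571, interval 0.41 to 0.68, adjusted p = 0.000203) that was below the 1.6-fold threshold. With cisplatin it was 6.84, 6.85 and 6.84 in W303-Δ*sky1*, against 6.27, 6.19 and 6.19 in W303 (0.63, SE 0.051, interval 0.51 to 0.75, adjusted p = 9.08e-06). In both comparisons the strains did not overlap, and the second difference counted as a DEG at a 1.5-fold threshold or, at 0.68, after cyclic loess.

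The cisplatin response of *THI21* in W303 ran the other way. Its signal was 6.51, 6.42 and 6.43 in treated W303, against 6.80, 6.81 and 6.73 in untreated W303 (-0.33, interval -0.46 to -0.20, adjusted p = 0.00494). *THI22* differed by less than the spread between replicates in the untreated strains, with 7.36, 7.27 and 7.31 in W303-Δ*sky1* and 7.42, 7.24 and 7.29 in W303 (-0.01, interval -0.16 to 0.15, adjusted p = 0.958). It had the largest fall of the 10 probe sets with cisplatin in W303, with 7.19, 7.07 and 7.01 in treated cells, against 7.68, 7.47 and 7.56 in untreated cells. That difference was -0.48 (interval -0.66 to -0.31, adjusted p = 0.00344) and stayed below the DEG threshold. Between the treated strains *THI22* overlapped (7.06, 6.98 and 7.07 in W303-Δ*sky1*, 7.05, 6.86 and 6.95 in W303, adjusted p = 0.274).

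**Figure D2:**
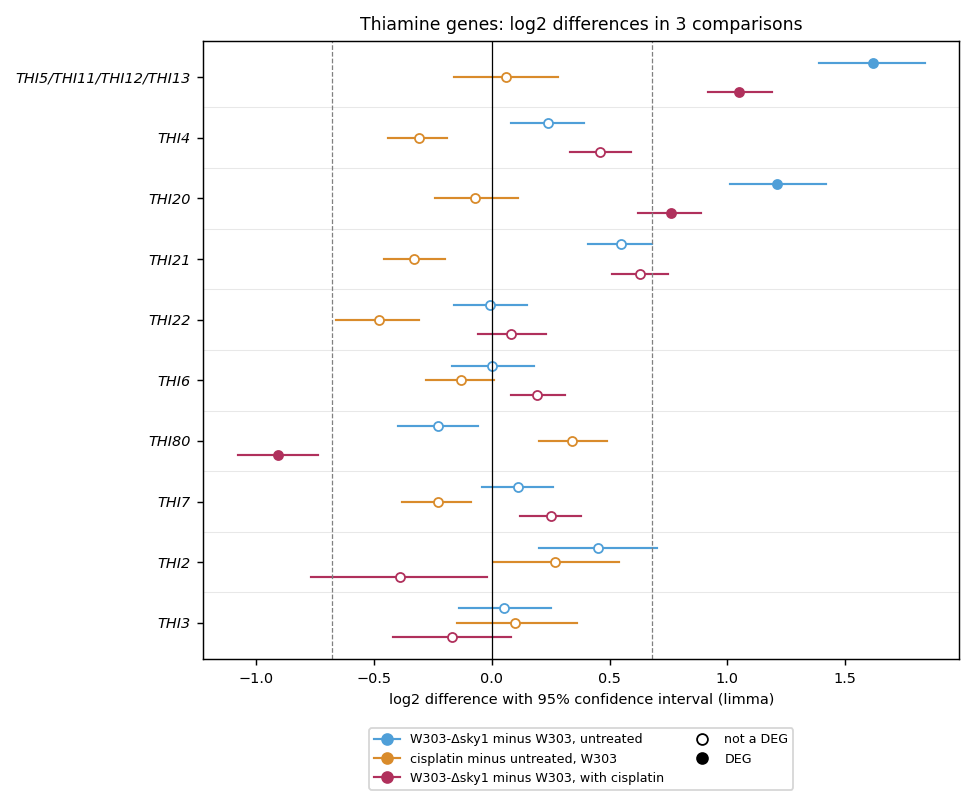
Log2 differences (horizontal axis) of the 10 thiamine probe sets (rows) in the 3 comparisons, with limma's 95% confidence intervals; filled points are DEGs and dashed lines mark the 1.6-fold threshold. The THI5 family and THI20 pass it in both strain comparisons, and THI80 passes it, downwards, between the treated strains (-0.91).

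*THI4* encodes the thiazole synthase, which gives up its own cysteine sulfur to form the thiazole ring. Its strain differences were small beside those of the *THI5* family. It was 6.01, 6.16 and 6.17 in untreated W303-Δ*sky1*, against 5.91, 5.88 and 5.84 in untreated W303 (0.24, interval 0.08 to 0.39, adjusted p = 0.0177). The adjusted p became 0.0697 when W303 untreated replicate 3 was left out, 0.0608 and 0.0629 when replicate 2 or replicate 3 of untreated W303-Δ*sky1* was left out, and 0.0671 when all probe sets of the array were tested. With cisplatin it was 6.09, 5.98 and 6.11 in W303-Δ*sky1*, against 5.55, 5.62 and 5.62 in W303 (0.46, interval 0.33 to 0.59, adjusted p = 0.000111). Within W303, all treated arrays (5.55, 5.62 and 5.62) were below all untreated arrays (5.86, 5.94 and 5.92), with a difference of -0.31 (interval -0.44 to -0.19, adjusted p = 0.00516).

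*THI6* encodes the bifunctional enzyme that phosphorylates the thiazole and couples it to the pyrimidine. In the untreated strains its signals overlapped, with 6.94, 6.91 and 6.75 in W303-Δ*sky1* and 6.79, 6.94 and 6.86 in W303, and the interval of the difference was -0.17 to 0.18. With cisplatin the 3 arrays of W303-Δ*sky1* (6.73, 6.72 and 6.73) were above those of W303 (6.57, 6.49 and 6.55), by 0.19 (interval 0.08 to 0.31, adjusted p = 0.00848). Within W303 the change with cisplatin was -0.13 (interval -0.28 to 0.01, adjusted p = 0.152).

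*THI7* encodes the thiamine transporter of the plasma membrane. It was 8.26, 8.28 and 8.32 in untreated W303-Δ*sky1*, against 8.10, 8.26 and 8.18 in untreated W303, and the difference of 0.11 did not pass the test (interval -0.04 to 0.26, adjusted p = 0.184). With cisplatin it was 8.12, 8.10 and 8.16 in W303-Δ*sky1*, against 7.96, 7.82 and 7.86 in W303 (0.25, interval 0.12 to 0.38, adjusted p = 0.00386). Within W303 it was 8.08, 8.01 and 7.99 with cisplatin, against 8.18, 8.34 and 8.25 without (-0.23, interval -0.38 to -0.09, adjusted p = 0.0271). The last p became 0.0969 or 0.103 when replicate 2 or replicate 3 of treated W303 was left out, 0.0512 or 0.0805 when replicate 2 or replicate 3 of untreated W303 was left out, and 0.0942 with all probe sets.

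*THI80* encodes thiamin pyrophosphokinase, which converts thiamine to thiamin diphosphate, and its signal was lower in W303-Δ*sky1* in both strain comparisons. With cisplatin its signal was 5.05, 5.08 and 4.88 in W303-Δ*sky1*, against 5.98, 5.81 and 5.96 in W303. The difference was -0.91 (SE 0.0743, interval -1.08 to -0.74, a 1.88-fold lower signal, adjusted p = 9.39e-06), which placed *THI80* at rank 321 of the decreases. Without cisplatin the signal was 5.15, 5.32 and 5.10 in W303-Δ*sky1*, against 5.39, 5.42 and 5.43 in W303 (-0.23, interval -0.40 to -0.06, adjusted p = 0.0299). It became 0.0905 or 0.10 when replicate 1 or replicate 3 of untreated W303-Δ*sky1* was left out, 0.0529 or 0.0913 when replicate 2 or replicate 3 of untreated W303 was left out, and 0.0949 with all probe sets. Within W303, *THI80* was 5.91, 5.76 and 5.90 with cisplatin, against 5.49, 5.49 and 5.56 without (0.34, interval 0.20 to 0.49, adjusted p = 0.00623).

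*THI2* encodes a zinc finger activator of the *THI* genes. Its differences had the largest standard error of the 10 probe sets in each comparison. In the untreated strains it was 4.69, 4.70 and 4.33 in W303-Δ*sky1*, against 4.21, 4.13 and 4.04 in W303 (0.45, SE 0.109, interval 0.20 to 0.70, adjusted p = 0.00954). Between the treated strains the sign was the opposite, with 4.15, 3.97 and 3.52 in W303-Δ*sky1* and 4.53, 4.09 and 4.20 in W303. These groups overlapped, and the difference of -0.39 (SE 0.165, interval -0.77 to -0.02) had an adjusted p of 0.0594 by limma. It fell to 0.0091 when the fit held the replicate number as a block, and was 0.0473 without W303 cisplatin replicate 2, 0.0196 without W303-Δ*sky1* cisplatin replicate 1 and 0.044 with an intensity trend. It was as high as 0.194, without W303 cisplatin replicate 1, and the difference shrank to -0.21 without W303-Δ*sky1* cisplatin replicate 3. Within W303 the signal was 4.82, 4.46 and 4.46 with cisplatin, against 4.46, 4.24 and 4.21 without (0.27, interval 0.01 to 0.54, adjusted p = 0.109, and 0.016 with the block), and the difference was 0.15 without W303 cisplatin replicate 1.

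*THI3* encodes a regulator that resembles a decarboxylase and acts with Thi2. Its signals overlapped in all 3 comparisons. The difference was 0.05 between the untreated strains (6.56, 6.44 and 6.44 in W303-Δ*sky1*, 6.57, 6.29 and 6.42 in W303, interval -0.14 to 0.25, adjusted p = 0.632). With cisplatin in W303 it was 0.10 (interval -0.15 to 0.36, adjusted p = 0.517). Between the treated strains it was -0.17 (6.52, 6.27 and 6.47 in W303-Δ*sky1*, 6.83, 6.43 and 6.51 in W303, interval -0.42 to 0.08, adjusted p = 0.203, and 0.042 with the replicate number as a block).

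With cisplatin in both strains, 2 of the 10 probe sets were DEGs with higher signals in W303-Δ*sky1* (the *THI5* family and *THI20*) and 1 was lower (*THI80*), beside 8.78% and 11.2% of all genes. At an adjusted p under 0.05 there were 6 higher and 1 lower, beside 32.8% and 37.8% of all genes, and the groups did not overlap in the same numbers of probe sets, beside 34.7% and 39.2%. The median was 0.22, beside -0.03 for all genes. In W303, cisplatin made 0 of the 10 a DEG in either direction, beside 1.58% of all genes called higher and 1.53% called lower. There 1 was higher (*THI80*) and 4 were lower (*THI4*, *THI7*, *THI21* and *THI22*) at an adjusted p under 0.05, beside 13.2% and 15.3% of all genes, and the groups did not overlap in these 5, beside 22.6% and 23.9% of all genes in the same directions. The median was -0.10, beside 0.00 for all genes. The signs of the W303 response and of the strain differences are not independent, because the same W303 arrays enter them.

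**Figure D3:**
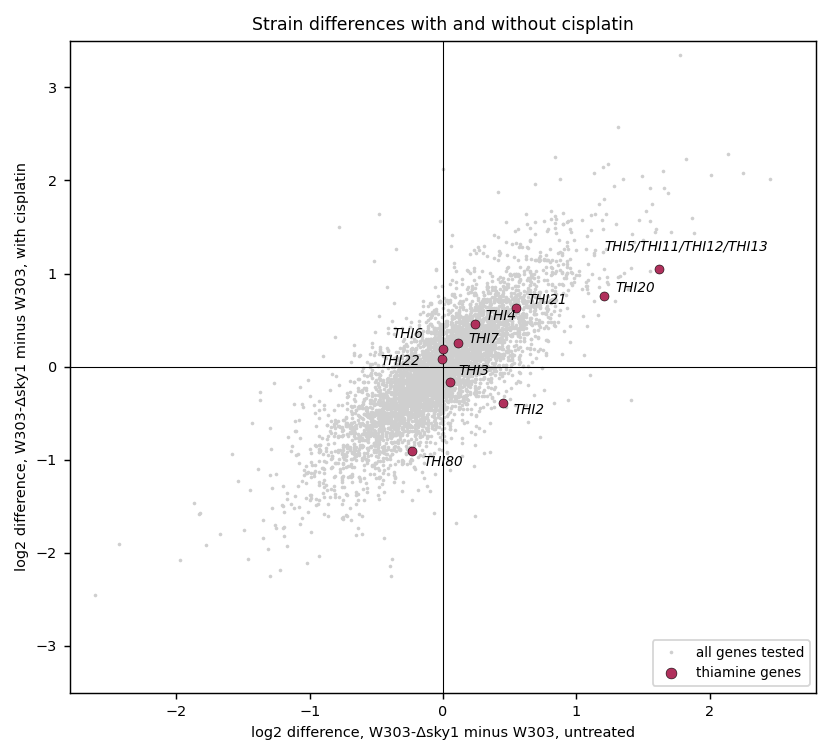
Log2 difference between W303-Δsky1 and W303 without cisplatin (horizontal axis) and with cisplatin (vertical axis) for the genes tested, with the 10 thiamine probe sets in colour; SKY1 lies outside the axes. The THI5 family (1.62 and 1.05) and THI20 (1.21 and 0.76) are farthest to the right among the thiamine genes, and THI80 (-0.23 and -0.91) is the lowest.

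The strain difference was 1.62 without and 1.05 with cisplatin for the *THI5* family, 1.21 and 0.76 for *THI20*, and -0.23 and -0.91 for *THI80*. Each of these differences was taken within 1 table, and whether the drug changed them was not tested. The response to cisplatin inside W303-Δ*sky1* was not tested either, since its treated and untreated arrays were normalized separately. The means of the same W303 arrays for the 10 probe sets differed between tables by -0.02 (*THI6*) to 0.25 (*THI22*) for untreated cells and by -0.31 (*THI2*) to 0.06 (*THI80*) for treated cells.

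Of 14 other genes tied to thiamine (12 probe sets), 1 was a DEG with higher signal and 2 were lower in untreated W303-Δ*sky1*, 0 and 1 with cisplatin in W303, and 2 and 2 in treated W303-Δ*sky1*. These are 25%, 8.33% and 33.3% of the 12 probe sets, beside 10.2%, 3.11% and 19.9% of all genes. Their medians were 0.15, 0.13 and -0.01 in the 3 comparisons. At an adjusted p under 0.05 the counts of higher and lower probe sets were 6 and 4, 3 and 2, and 4 and 4, in the same order. Together that is 83.3%, 41.7% and 66.7% of the probe sets, beside 52.3%, 28.4% and 70.6% of all genes, so that the last share was below that of all genes. The DEGs were transporters that were higher in W303-Δ*sky1*, *THI73* and *NRT1*, and a phosphatase and a transcription factor that were lower, *PHO3* and *RPI1*.

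*PHO3* encodes the periplasmic acid phosphatase that frees thiamine from its phosphates before uptake, and it was the 1 thiamine-related gene called in all 3 comparisons. Its signal was 4.31, 4.17 and 4.09 in untreated W303-Δ*sky1*, against 5.18, 4.88 and 4.80 in untreated W303 (-0.76, SE 0.109, adjusted p = 0.000821), and the call was lost without W303 untreated replicate 1 (-0.65). In treated W303-Δ*sky1* it was 2.66, 2.60 and 2.69, against 4.02, 3.91 and 3.73 in treated W303 (-1.24, SE 0.0779, adjusted p = 2.24e-06). Within W303 it was 4.45, 4.20 and 3.99 with cisplatin, against 5.31, 5.05 and 4.95 without (-0.89, SE 0.133, adjusted p = 0.00285). Its groups did not overlap in any of the 3 comparisons.

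*THI73*, a putative permease of the plasma membrane, was 4.21, 4.17 and 4.28 in untreated W303-Δ*sky1*, against 3.51, 3.60 and 3.40 in untreated W303 (0.72, adjusted p = 0.000165, and 0.67, below the threshold, without W303 untreated replicate 3). With cisplatin it was 4.26, 4.07 and 3.94 in W303-Δ*sky1*, against 3.21, 3.35 and 3.34 in W303 (0.79, adjusted p = 4.83e-05), and the drug changed it by 0.04 in W303 (adjusted p = 0.702). *NRT1* encodes a nicotinamide riboside transporter related to Thi7. Its strain difference was 0.64 without cisplatin (5.62, 5.73 and 5.68 in W303-Δ*sky1*, 5.03, 5.03 and 5.06 in W303, adjusted p = 0.00013). With cisplatin it was 0.71 (5.01, 5.00 and 5.06 in W303-Δ*sky1*, 4.26, 4.43 and 4.27 in W303, adjusted p = 1.42e-05), which lost the call without W303 cisplatin replicate 1 (0.68 after rounding). Within W303, *NRT1* was lower with cisplatin by 0.35 on the log2 scale (log2 difference -0.35, adjusted p = 0.0043).

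The other Thi7 relative, *THI72*, and *THI74*, a thiamine-repressed transporter of mitochondria, did not reach the DEG threshold. These and the *SNZ*, *SNO*, *PET18*, *PDC2* and *ILV2* values below were chosen after they were seen. *THI72* differed between the strains by 0.48 without and 0.47 with cisplatin (adjusted p = 0.000876 and 0.000295), and *THI74* by 0.43 and 0.65 (adjusted p = 0.00122 and 2.33e-05). Each was higher on every array of W303-Δ*sky1* than on any of W303 in both tables. *THI74* between the treated strains was a DEG at a 1.5-fold threshold, after cyclic loess (0.75), median centring (0.68) or quantile normalization over *S. cerevisiae* genes (0.74), and without W303-Δ*sky1* cisplatin replicate 1 (0.69).

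*RPI1* encodes a transcription factor, and it was the largest decrease among the related genes without cisplatin. Its signal was 5.02, 5.11 and 5.01 in untreated W303-Δ*sky1*, against 6.34, 6.34 and 6.36 in untreated W303 (-1.30, SE 0.0581, adjusted p = 1.13e-05). In treated W303-Δ*sky1* it was 5.47, 5.45 and 5.35, against 6.67, 6.56 and 6.52 in treated W303 (-1.16, adjusted p = 1.02e-06). Within W303 it was 0.31 higher with cisplatin (adjusted p = 0.00393). *PDC2*, the transcription factor that acts with Thi2 and Thi3, differed by -0.19 between the untreated strains (adjusted p = 0.0473, above 0.05 in 10 of 18 alternatives) and by -0.34 between the treated strains (adjusted p = 0.00819).

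In the reference annotation *THI5* lies beside *SNZ3* and *SNO3*, and *THI12* beside *SNZ2* and *SNO2*, genes of the synthase of vitamin B6, from which yeast also makes the pyrimidine of thiamine. The shared probe set of *SNZ2* and *SNZ3* differed between the untreated strains by 0.42 (adjusted p = 0.0155, and 0.0548 without W303-Δ*sky1* untreated replicate 3) and that of *SNO2* and *SNO3* by 0.44 (adjusted p = 0.000963). *SNZ2*/*SNZ3* was 6.04, 6.19 and 6.33 in W303-Δ*sky1*, against 5.82, 5.55 and 5.92 in W303, and *SNO2*/*SNO3* was 6.13, 6.10 and 6.11, against 5.77, 5.59 and 5.66. Between the treated strains the differences were -0.12 and 0.10 and did not pass the test (adjusted p = 0.168 and 0.195). That of *SNZ2*/*SNZ3* passed without W303-Δ*sky1* cisplatin replicate 1 (-0.18, adjusted p = 0.0423), and that of *SNO2*/*SNO3* after cyclic loess (0.17, adjusted p = 0.0269) or quantile normalization over *S. cerevisiae* genes (0.16, adjusted p = 0.0444). Whether these differences and those of the *THI5* family (1.62 and 1.05) were unlike was not tested. *SNZ1* and *SNO1* went the other way between the untreated strains, by -0.12 and -0.11, and did not pass (adjusted p = 0.146 and 0.162 from limma). Between the treated strains they differed by -0.28 and -0.01 (adjusted p = 0.00409 and 0.892). With cisplatin in W303 they were 0.59 and 0.44 higher (adjusted p = 0.000368 and 0.00162). *PET18*, of the same list, differed by -0.32 between the untreated strains (adjusted p = 0.00573).

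The list of 12 users of thiamin diphosphate also counts *TPC1*, which encodes a carrier of the cofactor (-0.29 between the untreated strains, adjusted p = 0.0249 from limma). The list gave 1 DEG in each comparison, 8.33% of its genes, beside 10.2%, 3.11% and 19.9% of all genes for the untreated strains, W303 with and without cisplatin, and the treated strains. *ARO10*, a decarboxylase of amino acid breakdown, was lower in untreated W303-Δ*sky1* (7.60, 7.41 and 7.56) than in untreated W303 (8.56, 8.27 and 8.52), by a log2 difference of -0.93 (adjusted p = 0.000188). It was also lower in treated W303-Δ*sky1* (8.15, 7.89 and 7.87) than in treated W303 (9.27, 8.99 and 9.06), with a difference of -1.13 (adjusted p = 1.36e-05), and it was 0.53 higher with cisplatin in W303 (adjusted p = 0.0123). *PDC6*, the minor pyruvate decarboxylase, whose protein is known to be poor in sulfur amino acids, was 6.62, 6.74 and 6.74 in W303 with cisplatin, against 5.25, 5.33 and 5.26 without (1.42, SE 0.0597, adjusted p = 4.37e-06). Between the strains *PDC6* differed by 0.17 without and 0.05 with cisplatin (adjusted p = 0.218 and 0.609). Of the 12, 3 were higher and 3 lower in untreated W303-Δ*sky1*, 2 and 1 with cisplatin in W303, and 5 and 2 in treated W303-Δ*sky1*, at an adjusted p under 0.05, with medians of 0.02, -0.11 and 0.04. These are 50%, 25% and 58.3% of the list, each below the share of all genes (52.3%, 28.4% and 70.6%).

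**Figure D4:**
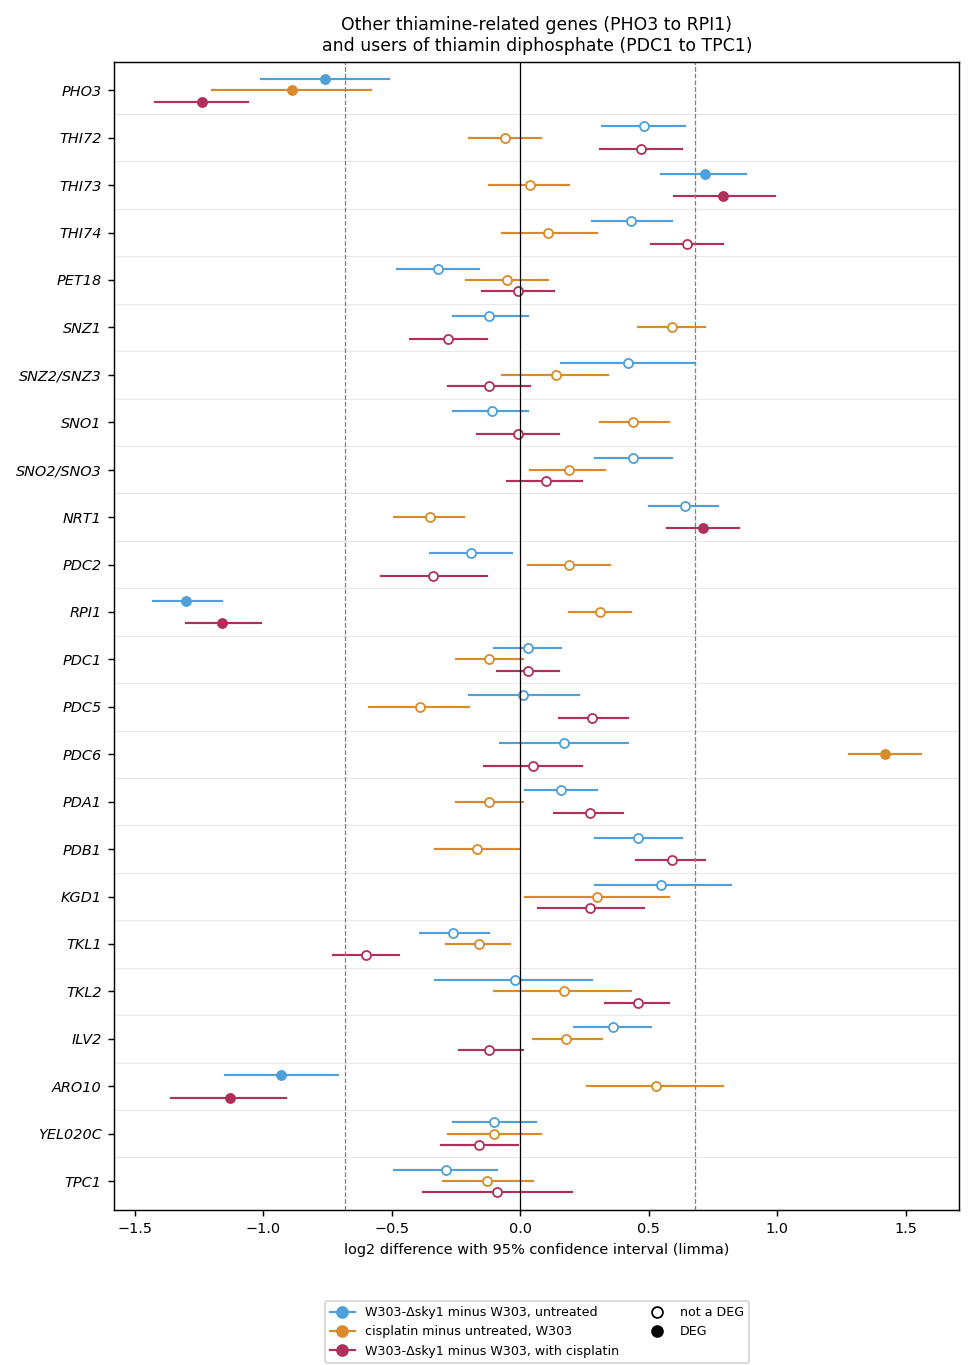
Log2 differences (horizontal axis) of 12 probe sets of other thiamine-related genes and 12 users of thiamin diphosphate (rows) in the 3 comparisons, with limma's 95% confidence intervals. Filled points are DEGs, and dashed lines mark the 1.6-fold threshold. YEL020C is PXP1, and TPC1, counted with the users, encodes a carrier of the cofactor. PHO3, RPI1 and ARO10 lie to the left in both strain comparisons, and PDC6 passes the threshold with cisplatin in W303 (1.42).

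Likeness to the called thiamine genes was measured as the Euclidean distance over the 3 log2 differences, among all genes tested except the 10 thiamine probe sets themselves. Nearest to the *THI5* family were *ECM27* (0.19), *YET2* (0.22), YIR007W (0.27), *YAT1* (0.33) and *SPO11* (0.36). Nearest to *THI20* were *PCL1* (0.11), YDR026C (0.12), *PHM8* (0.17), *PGM1* (0.18) and *PMT5* (0.19). Nearest to *THI80* were YDR210W (0.07), *SVL3* (0.08), YOL047C (0.09), *RGD1* (0.10) and *HBS1* (0.11). None of these 15 genes was in the lists of thiamine-related genes or of users of the cofactor. Those lists hold only 24 of the 5698 probe sets tested, so the absence says little about likeness between thiamine genes.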

How the data were processed

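The tables deposited by the authors hold log2 signals, which they computed by RMA for the 6 arrays of each of the 3 comparisons apart. The 18 samples listed are 12 arrays, since the 6 W303 arrays stand in 2 tables each. The authors' columns of means, p-values and FDR were not used. All 18 value columns were matched to a sample, with 0 unmatched. The paper and the sample labels state different amounts of RNA per array.

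The arrays hold 10715 probe sets, of which 5714 have an Ensembl gene entry in the annotation and were taken as *S. cerevisiae*. Those with a gene title but no such entry (4948) were taken as *S. pombe*, and 53 have neither. Where a gene had several probe sets the brightest was kept, and the 16 others were dropped, which leaves 5698. limma 3.58.1 (R 4.3.3) was run on each table by itself, after a test of the procedure on simulated data. With 3 arrays a group, precision is limited.

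All 10 genes were named, as were genes of 2 further lists (26 genes on 24 probe sets) that were DEGs in any comparison and, for each called thiamine gene, the 5 nearest genes. *PXP1* was matched by its locus tag and the rest by symbol. The members and lists were chosen with earlier results of these data known.

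Deviations from the group means correlated with r of 0.22 to 0.43, 0.21 to 0.32 and 0.29 to 0.44 for equal replicate numbers (untreated strains, W303 with and without cisplatin, treated strains). For different numbers r was at most -0.03, -0.03 and 0.13. Equal numbers were therefore read as pairs, but the main fit held the group alone, and its p-values and intervals leave the pairing out. The pairing entered only where the replicate number was a block. Within W303 the methods also state that each culture was divided. The alternatives changed the fold threshold, the probe sets, the variance model or the normalization, added the replicate number as a block, or left out each array in turn.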

Additional observations from a re-analysis of the deposited data

Results flagged for a closer look

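*ILV2*, the catalytic subunit of acetolactate synthase and a user of thiamin diphosphate, differed between W303-Δ*sky1* and W303 by 0.36 on the log2 scale without cisplatin (limma, adjusted p = 0.00261) and by -0.12 with cisplatin (adjusted p = 0.0853, and 0.0482 with an intensity trend), and it was singled out because every array of one strain lay above the other in the first comparison and below it in the second. Its signal was 9.78, 9.85 and 9.73 in untreated W303-Δ*sky1*, against 9.46, 9.47 and 9.35 in untreated W303, and 9.56, 9.56 and 9.55 in treated W303-Δ*sky1*, against 9.74, 9.63 and 9.64 in treated W303. The difference between the comparisons was not tested, and neither reached 1.6-fold. Taken singly, such gaps were common. Of all genes, 29.5% were higher without overlap in untreated W303-Δ*sky1* and 39.2% lower without overlap in treated W303-Δ*sky1*. How many of all genes changed sides was not counted.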

How the results depend on the processing

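The counts of DEGs turned on the fold threshold. Between the untreated strains 582 genes were called, 159 at 2-fold and 2505 with no fold threshold (both limits on p kept); with cisplatin in W303 there were 177, and 283 at 1.5-fold, 65 at 2-fold and 1451 with none; between the treated strains there were 1136, and 432 at 2-fold and 3527 with none. Of the thiamine genes, 2 higher between the untreated strains became 5 with no fold threshold, 0 higher and 0 lower with cisplatin in W303 became 1 and 4, and between the treated strains 2 higher became 1 at 2-fold and 6 with none, and 1 lower became 0 at 2-fold, where *THI20* (0.76) and *THI80* (-0.91) were no longer called. Leaving out 1 array at a time gave 570 to 643, 171 to 232 and 1127 to 1146 DEGs and left the counts of thiamine genes at 2 and 0, 0 and 0, and 2 and 1. With the replicate number as a block (replicate block) the DEGs were 586, 178 and 1141. The thiamine genes called were again 2 and 0, 0 and 0, and 2 and 1. The block changed no call of the 10, but it moved adjusted p-values (limma), those of *THI2* and *THI3* as given above. Between the untreated strains it raised that of the *THI5* family from 2.69e-05 to 0.000382 and that of *THI20* from 6.35e-05 to 0.000659. Between the treated strains it gave 3.82e-06 for the *THI5* family, 1.17e-05 for *THI20* and 3.09e-05 for *THI80*. Differences that changed sign were all uncalled and near 0. For *THI22* between the untreated strains they were 0.02 with cyclic loess, 0.01 with median centring and 0.02 with quantile normalization, and -0.04 to 0.05 with arrays left out. With arrays left out they ran from -0.03 to 0.06 (*THI6*) and -0.02 to 0.12 (*THI3*) between the untreated strains, from -0.01 to 0.18 (*THI3*), -0.12 to 0.01 (*THI20*) and -0.04 to 0.13 (*THI5* family) with cisplatin in W303, and from -0.01 to 0.13 (*PDC6*) between the treated strains. *THI73* with cisplatin in W303 was 0.00 with cyclic loess, -0.04 with quantile normalization and 0.00 to 0.08 with arrays left out. The causes of these changes were not tested.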
